A study of Danio rerio with 24 samples.

Results

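The 10 genes described here mark microglia or signal to them: the receptor genes csf1ra and csf1rb, the ligand genes csf1a, csf1b and il34, the transcription factor genes spi1b and irf8, and mpeg1.1, apoeb and p2ry12. They were taken from the count table by gene symbol, 10 of 32266 genes, and each symbol matched a single Ensembl gene. All 10 were among the 20957 genes that passed the filter on low counts. RNA was sequenced from rb1 brain tumors and from normal brain to find the genes that differ between them. The tumors came from 10 adult zebrafish of the WIK strain whose somatic cells were targeted at rb1 by TALENs, a kind of designed nuclease, so every fish was a mosaic of cells with different rb1 lesions, and tumor samples could hold untargeted cells. The controls were 2 pools, each of midbrain and hindbrain from 3 wild-type WIK adults. Labelled ages were 6.5 to 10 months, and each RNA sample gave library replicates a and b, which were summed.

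Microglia are the resident macrophages of the brain. They derive from blood-forming precursors, depend on the receptor tyrosine kinase Csf1r for survival and growth, and clear dying cells and synapses. Csf1r answers to either of a pair of ligands that are unlike in sequence, Csf1 and Il34, and in mice Il34 comes largely from neurons. Zebrafish carry duplicate receptor genes and duplicate csf1 genes, and csf1ra is also needed by xanthophores, the yellow pigment cells of the skin.

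Total counts per sample were 18.5 to 24.95 M in tumors and 19.8 and 21.04 M in the control pools, where M stands for mega counts. Levels are given as CPM, TMM-scaled counts per 1 M counts, and 3 counts correspond to 0.120 to 0.162 CPM in tumors and 0.143 to 0.152 CPM in controls, which covers counting error only. A chi-square of the counts, divided by its degrees of freedom and near 1 under sampling noise alone, was 1.04 to 1.60 between the a and b libraries of a tumor. The control libraries went against their labels: pairs with the same letter gave 1.00 and 1.01, pairs with the same pool number 3.25 and 3.42. The labelled pools therefore differed by no more than sampling noise (1.01), whereas the sums by letter differed by 5.36. For this reason every call of the main edgeR comparison was also made with controls summed by letter. Per the paper, replicates a and b were run in separate lanes, so control letter and lane cannot be told apart. Of the 10 genes and all list genes tested, summing by letter turned the calls of pecam1 and tmem119b, given where they are described. The ratios, their permutation tests and the counts of tumors above or below both pools used the labelled pools alone. So did the other tools, scalings and filters, the replicate block and the fits that left samples out. The single-library fits also took the controls by pool number. All of these, and the main comparison, may therefore understate the spread between control samples. rb1 had 18.8 to 101 CPM in tumors (median 29.3), against 13.1 and 14.6 CPM in the pools, and did not pass the test (edgeR adjusted p = 0.0481); a gene count does not show a lesion and cannot check the label.

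Most of the myeloid genes were higher in tumors, while both csf1 genes were lower. Calls required an adjusted p no higher than 0.01 (edgeR quasi-likelihood test, Benjamini-Hochberg over all genes tested) and a difference of 1.5-fold or more. By this rule 5 of the 10 genes were higher (csf1ra, spi1b, irf8, mpeg1.1 and apoeb), 2 were lower (csf1a and csf1b) and 3 did not pass (csf1rb, il34 and p2ry12). Of all genes tested, 22.8% were called higher, 24.9% lower and 47.7% either way, so a call by itself was common. In 6 of the 10 genes all tumors lay above both pools, and in 2 all lay below, against 31.5% and 32.8% of all genes tested. The median log2 fold change was 1.79 over the 10 genes and 0.09 over all genes tested. The plot of levels by sample shows the separated and the overlapping genes.

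**Figure D1:**
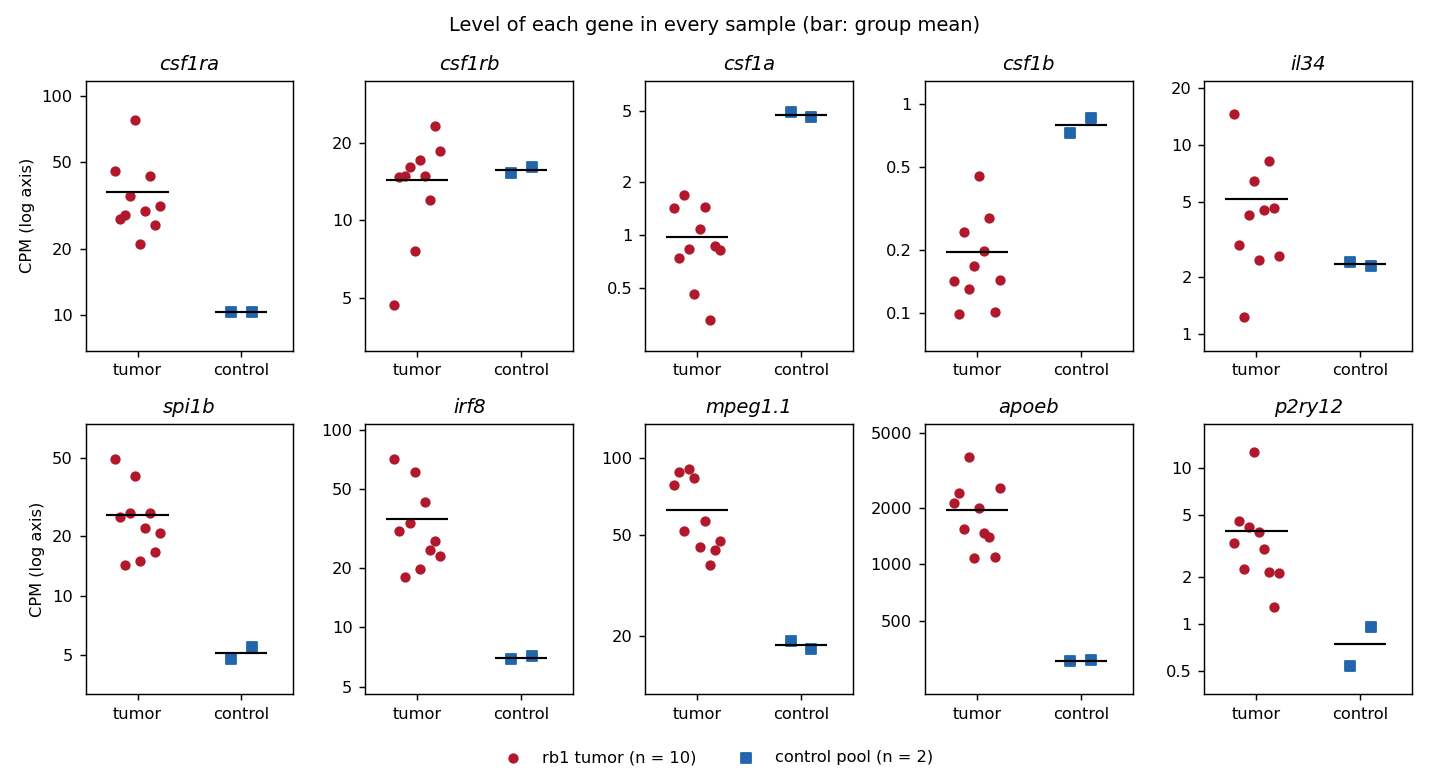
Levels of the 10 genes in CPM (log axes that differ between panels) in the 10 tumors (circles, left) and the 2 control pools (squares, right), with bars at the group means. In 8 panels the groups do not overlap, and csf1rb and il34 overlap.

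The same 5 higher and 2 lower calls were made with the control libraries summed by letter. Left with a single labelled pool, whichever it was, these genes kept their direction, and fewer of them were called. As examples of size, and not of calls kept, the log2 fold change was then 2.65 and 2.66 for apoeb, and -2.08 and -1.84 for csf1b. Because control libraries were alike by letter and not by pool number, a labelled pool may hold both control samples. Leaving a pool out, here and below, may therefore not remove a control sample. Because RNA came from whole tissue, a greater number of cells of a type and more RNA per cell cannot be told apart for any of these genes.

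Among the ligands, csf1a and csf1b were lower in every tumor and il34 was higher in most. csf1a had 0.333 to 1.68 CPM in tumors (median 0.848), against 4.93 and 4.62 CPM in the control pools. The highest tumor, tumor 3, was still well under both pools. The log2 fold change, with its SE, was -2.29 ± 0.41 (edgeR adjusted p = 0.000335), a level 4.91-fold lower in tumors. Here and below the SE was worked back from the test, as the absolute log2 fold change over the square root of the quasi-likelihood F. csf1b, the other copy, had 0.0992 to 0.456 CPM in tumors (median 0.157), against 0.725 and 0.861 CPM in the pools, again without overlap. Its log2 fold change was -1.96 ± 0.45 (edgeR adjusted p = 0.00214). These levels rest on few reads: csf1b had 2 to 11 counts per tumor and 15 and 19 counts in the pools, while csf1a had 7 to 41 per tumor and 102 in each pool. With the pool and tumor numbers used as a replicate block, neither csf1 gene passed (edgeR adjusted p = 0.0233 for csf1a and 0.0356 for csf1b). Only numbers 1 and 2 hold both a tumor and a pool, so that fit compares tumors 1 and 2 alone with the pools. Nothing in the labels ties a tumor to a pool of the same number.

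il34 varied more between tumors than any other of the 10 genes when the highest tumor is set against the lowest, a ratio of 11.9. It had 1.23 to 14.6 CPM in tumors (median 4.41), against 2.42 and 2.31 CPM in the control pools. Tumor 1 was highest, tumor 8 next with 8.27 CPM, and tumor 3 was the single tumor below both pools. The log2 fold change of 1.14 ± 0.73 did not pass the test (edgeR adjusted p = 0.191), and the value ran from 0.81 to 1.28 when each sample was left out in turn. A mean difference between tumors and controls was therefore not shown for il34, and the spread between tumors was wide compared with that between its own libraries, which differed by a median of 1.27-fold and at most 1.53-fold within a tumor.

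The balance of the ligand genes can be read per length from FPKM, counts per kilobase of exon per 1 M counts. In tumors il34 averaged 2.91 FPKM, csf1a 0.395 and csf1b 0.133, whereas in the pools csf1a averaged 2.05 FPKM, il34 1.41 and csf1b 0.573. The ratio of il34 to csf1a plus csf1b was 0.816 to 14.04 in tumors (median 5.09), against 0.546 and 0.528 in the pools. Tumors and pools did not overlap in it (10 of 10 tumors above both pools). An exact permutation test over samples gave p = 0.0303, the smallest that 10 against 2 samples allow, and 0.0606 after Benjamini-Hochberg adjustment over the 4 ratios compared, so the difference did not pass the correction. The ratios were chosen after seeing the data.

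**Figure D2:**
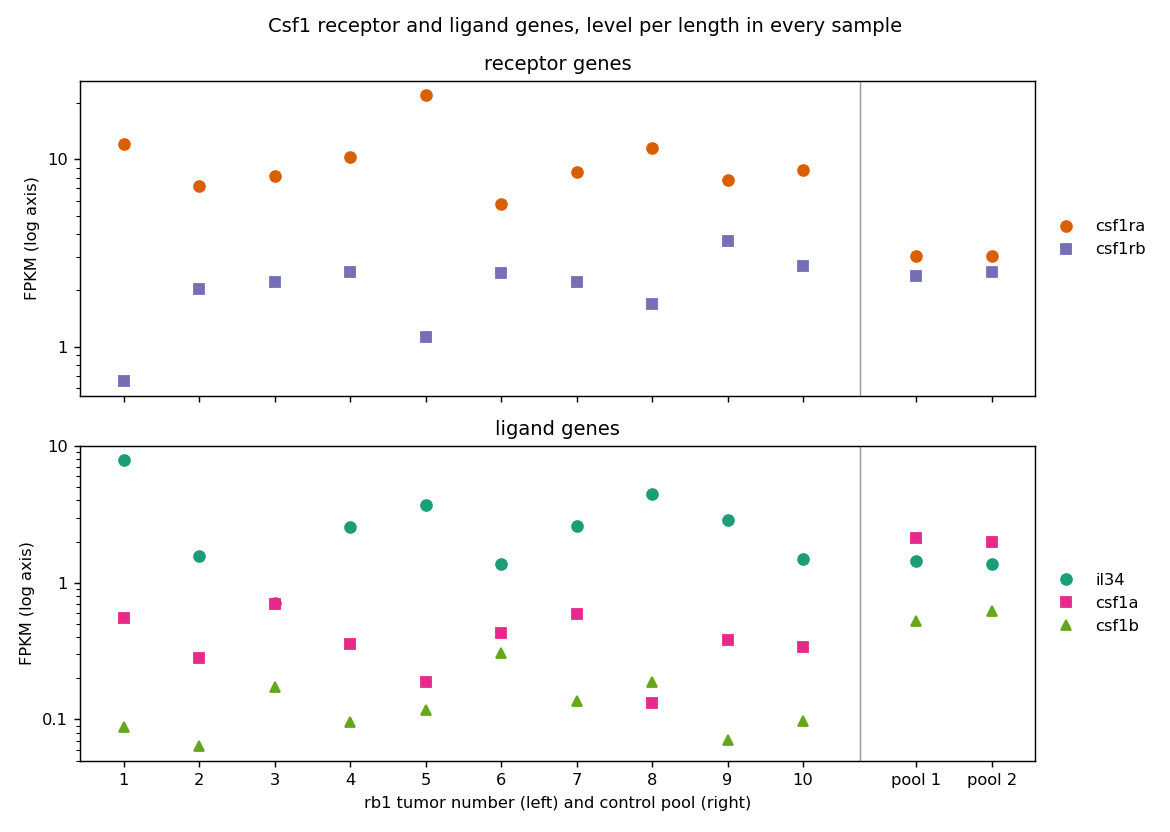
FPKM (log axes) of the Csf1 receptor genes (upper panel) and ligand genes (lower panel) in tumors 1 to 10 (left of the line) and the control pools (right). csf1ra lies above csf1rb in every sample by a wider gap in tumors, and in the pools csf1a lies above il34, while in 9 of the 10 tumors il34 lies clearly above csf1a and in tumor 3 the symbols coincide.

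The receptor genes differed from each other in how tumors compared with controls. csf1ra had 21.01 to 77.7 CPM in tumors (median 30.6), against 10.3 CPM in both pools, and no tumor reached down to the pools. Its log2 fold change was 1.82 ± 0.44 (edgeR adjusted p = 0.00277), a level 3.54-fold higher in tumors. csf1rb had 4.65 to 23.2 CPM in tumors (median 14.8), against 15.3 and 16.04 CPM in the pools, and 4 tumors lay above both pools and 6 below. Its log2 fold change was -0.13 ± 0.41 (edgeR adjusted p = 0.800). Without tumors 1 and 5, where csf1rb was lowest with 4.65 and 7.59 CPM, the value was 0.14 (adjusted p = 0.580). The duplicates may share reads that were not counted, since only uniquely mapped reads were kept.

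Per length, csf1ra averaged 10.2 FPKM and csf1rb 2.13 FPKM in tumors, against 3.06 and 2.44 FPKM in controls. The ratio of csf1ra to csf1rb was 2.12 to 19.6 in tumors (median 3.77), against 1.28 and 1.23 in the pools, and all 10 tumors lay above both pools. The exact permutation test over samples gave p = 0.0303 and an adjusted p of 0.0606. Tumors 5 and 1 were the highest in csf1ra and the lowest in csf1rb. Over the 10 tumors the levels of the receptor genes ran opposite to each other (log2 CPM, Pearson r = -0.73, permutation p = 0.0222, adjusted p = 0.111 over 18 relations; Spearman rho = -0.70, permutation p = 0.0309, adjusted p = 0.186), and r was -0.57 without tumors 1 and 5. The relation did not pass the correction.

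Xanthophore genes were examined because csf1ra is a gene of these cells too. Of 9 tested in the list of 10, 2 were called higher, 2 lower and 5 neither way, and the median log2 fold change was 0.41. These counts lay near the shares over all genes tested, 22.8% higher and 24.9% lower. The summed level was 27.7 to 59.6 CPM in tumors, against 160 and 155 CPM in the pools, in the pools mostly from pax7a and pax7b, which also mark midbrain cells. gch2, an enzyme of pteridine pigment synthesis, was higher (2.23 to 9.28 CPM in tumors, against 1.64 and 1.95 CPM in the pools; log2 fold change 1.57 ± 0.44, edgeR adjusted p = 0.00675), and the call was lost on leaving out 2 of the 10 tumors in turn. aox5 was too low to be tested. Across tumors, gch2 and csf1ra had r = -0.70 (permutation p = 0.0310, adjusted p = 0.111), and r was -0.16 without tumors 1 and 5. Their rho was -0.45 (permutation p = 0.190, adjusted p = 0.409). The relation did not pass the correction, and which cells made csf1ra was not tested.

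The transcription factor genes spi1b and irf8 were higher in every tumor. spi1b encodes Pu.1, which drives myeloid fate, and irf8 encodes a factor that macrophages and microglia need to form. spi1b had 14.4 to 49.3 CPM in tumors (median 23.6), against 4.78 and 5.53 CPM in the pools, and irf8 had 17.97 to 71.01 CPM (median 29.0), against 6.91 and 7.16 CPM. The lowest tumor, tumor 3 for both, exceeded the higher pool more than 2-fold. The log2 fold changes were 2.31 ± 0.48 for spi1b (edgeR adjusted p = 0.00104) and 2.32 ± 0.55 for irf8 (edgeR adjusted p = 0.00253). In the RefSeq annotation of the newer assembly GRCz12tu, spi1b overlaps the protein-coding gene si:ch73-314g15.3, so reads of the overlap could belong to either gene.

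spi1b and irf8 varied together across tumors. Tumors 1 and 5 were highest in both and tumors 3 and 6 lowest. Over 10 tumors r was 0.89 (permutation p = 0.00071, adjusted p = 0.0128) and rho 0.85 (permutation p = 0.00307, adjusted p = 0.0553). It was the only one of the 18 relations whose r passed an adjusted p of 0.05, and without tumors 1 and 5 r was 0.65, so part of it rested on those tumors. Tumors 1 and 5 also had the highest summed neutrophil genes, 384 and 257 CPM, and the highest summed lymphocyte genes, 55.5 and 19.9 CPM; the part of these cells in the relation was not tested.

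**Figure D3:**
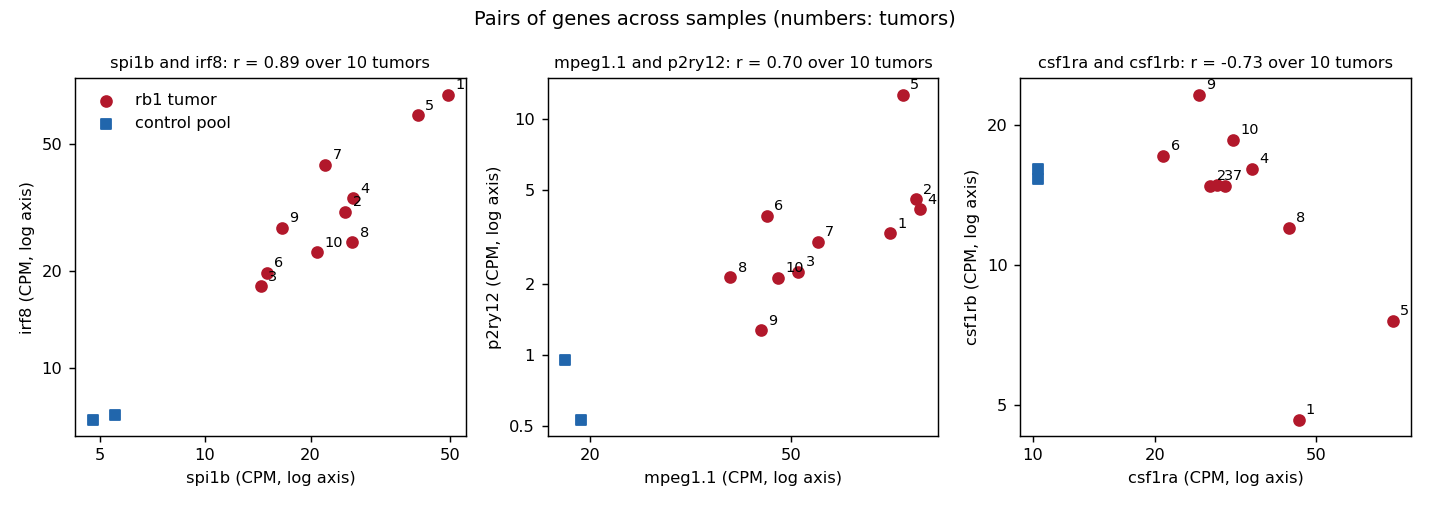
CPM (log axes) of 3 pairs of genes in the 10 tumors (circles, numbered) and the 2 control pools (squares). spi1b and irf8 rise together, mpeg1.1 and p2ry12 less closely, and csf1ra and csf1rb run opposite, with tumors 1 and 5 at the ends of the first and the last panel.

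The genes of mature macrophages and microglia were higher as well. mpeg1.1, which encodes the pore-forming perforin-2 and marks macrophages and microglia in zebrafish, had 37.9 to 90.2 CPM in tumors (median 54.1), against 19.1 and 17.9 CPM in the pools. Its lowest tumor, tumor 8, lay above both pools, and the ratio of highest to lowest tumor, 2.38, was the smallest of the 10 genes. The log2 fold change was 1.75 ± 0.37 (edgeR adjusted p = 0.0011). apoeb encodes apolipoprotein E, the lipid carrier that zebrafish microglia express strongly. It had 1080 to 3723 CPM in tumors (median 1771), against 306 and 309 CPM in the pools, a gap with no overlap. The log2 fold change of 2.66 ± 0.47 (edgeR adjusted p = 0.000333) was the largest of the 10 genes, and at 909 FPKM in tumors, against 152 FPKM in controls, it was the most abundant of them in both groups. Neighbouring apoc1, an apolipoprotein gene of the same cluster, was higher too, by 2.06 ± 0.37 on the log2 scale (edgeR adjusted p = 0.000373).

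p2ry12 encodes a purine receptor with which mammalian microglia sense ADP. It had 1.27 to 12.7 CPM in tumors (median 3.15), against 0.532 and 0.952 CPM in the pools, and all 10 tumors lay above both. Tumor 5 stood apart, since the next tumor had 4.56 CPM. The log2 fold change was 2.40 ± 0.81 and missed the threshold (edgeR adjusted p = 0.0203). The call depended on the setting. It passed without tumor 5 (adjusted p = 0.00483), with DESeq2 (0.00158), with limma voom using sample quality weights (0.000135) and in library b alone (0.00697). It missed with controls summed by letter (0.0208), in library a alone (0.0584) and on log2(FPKM + 1), where the difference was 1.08 (0.0423). It also missed without labelled pool 1 or labelled pool 2, where the log2 fold change was 2.04 and 2.88. The counts were 25 to 301 per tumor and 11 and 21 in the pools.

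Set against mpeg1.1, the level of p2ry12 per length did not separate the groups. The ratio of p2ry12 to mpeg1.1 was 0.0495 to 0.258 in tumors (median 0.083), against 0.0471 and 0.0906 in the pools (exact permutation p = 0.364, adjusted p = 0.364). The ratio of apoeb to mpeg1.1 was 16.1 to 67.9 in tumors (median 35.6), against 19.9 and 21.5 in the pools, with 9 of 10 tumors above both (exact permutation p = 0.0909, adjusted p = 0.121). Across tumors, mpeg1.1 and p2ry12 had r = 0.70 (permutation p = 0.0148, adjusted p = 0.111) and rho = 0.78 (permutation p = 0.0101, adjusted p = 0.0908), and r was 0.73 without tumors 2 and 4. mpeg1.1 and apoeb had r = 0.41 (permutation p = 0.242, adjusted p = 0.337; rho = 0.44, permutation p = 0.204, adjusted p = 0.409), and r was -0.08 without tumors 2 and 4. Neither passed the correction, nor did those of mpeg1.1 with spi1b (r = 0.63), irf8 (0.65), csf1ra (0.41) and csf1rb (-0.47), whose adjusted permutation p was 0.131 to 0.337.

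**Figure D4:**
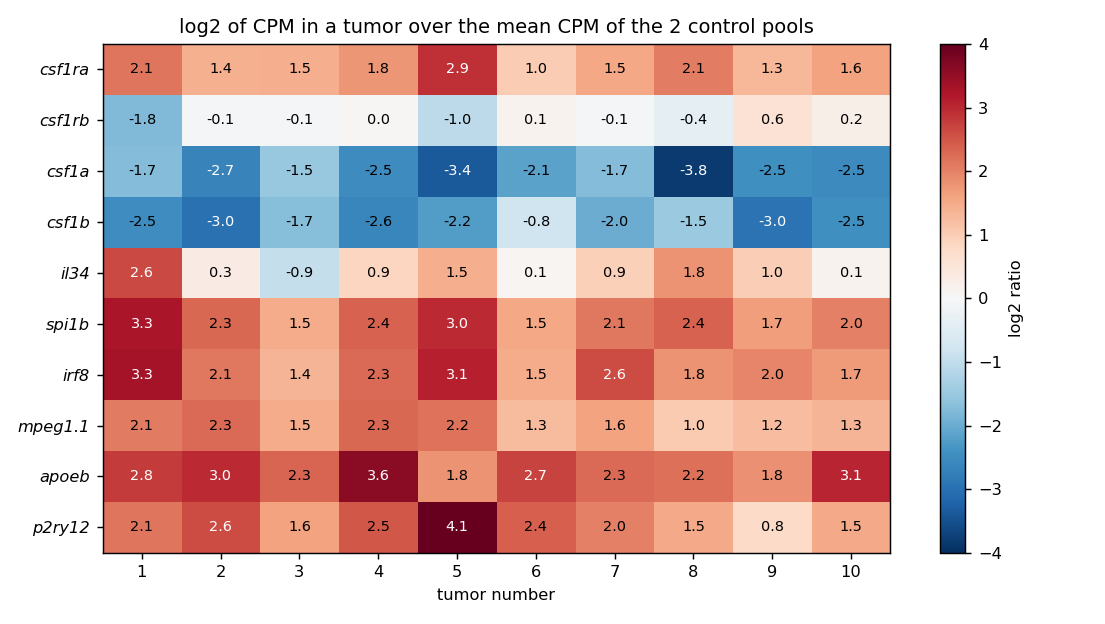
The log2 ratio of each tumor's CPM to the mean CPM of the 2 control pools, for the 10 genes (vertical axis) in tumors 1 to 10 (horizontal axis). csf1a and csf1b are negative in all tumors, csf1rb and il34 take both signs, and tumor 5 holds the highest value of csf1ra (2.92) and p2ry12 (4.1).

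Each tumor had its own profile over the 10 genes. Tumor 1 was highest in spi1b, irf8 and il34 and lowest in csf1rb. Tumor 5 was highest in csf1ra and p2ry12 and lowest in apoeb, whose highest level was in tumor 4. Tumor 3 was lowest in spi1b, irf8 and il34 but highest in csf1a. For apoeb, irf8, mpeg1.1, csf1ra, spi1b and csf1rb, libraries a and b of a tumor differed by a median of 1.01-fold to 1.08-fold, well under the differences between tumors, while csf1b differed by a median of 1.41-fold over the 7 tumors with counts in both libraries.

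Ligand and receptor levels were compared across tumors for each of the 6 pairs. csf1ra and il34 had r = 0.61 (permutation p = 0.0605, adjusted p = 0.136; rho = 0.66, permutation p = 0.045, adjusted p = 0.203), and r was 0.56 without tumors 1 and 5. csf1rb and il34 had r = -0.68 (permutation p = 0.0309, adjusted p = 0.111; rho = -0.60, permutation p = 0.0732, adjusted p = 0.238), and r was -0.17 without those tumors, so the relation rested on them. csf1ra and csf1a had r = -0.50 (permutation p = 0.140, adjusted p = 0.252; rho = -0.37, permutation p = 0.295, adjusted p = 0.445), and r was -0.62 without tumors 1 and 5. No ligand and receptor pair passed the correction, and the other 3 pairs had r of -0.17 to 0.03 with adjusted p of 0.804 to 0.961. il34 and the neuronal gene snap25a had r = -0.58 (permutation p = 0.0785, adjusted p = 0.157; rho = -0.37, permutation p = 0.297, adjusted p = 0.445), and r was -0.00095 without tumors 1 and 3.

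For 3 of the genes, those with the most similar log2 CPM across the 10 tumors were listed from 13404 genes, as a description. The highest of 13404 r values over only 10 tumors can be large by chance, and no test was run on them. Nearest to csf1ra were erf (r = 0.94), irf9, ubxn4, acp6 and pmp22b (r = 0.92 for the last). Nearest to mpeg1.1 were tbc1d10ab (r = 0.93), BX004816.4, xbp1, mpp1 and GID4 (r = 0.89 for the last). Nearest to il34 were vaspa (r = 0.98), wasb, wipf1a, si:ch211-212d10.1 and stat4 (r = 0.96 for the last). vaspa, wasb and wipf1a encode relatives of actin regulators, and irf9 and stat4 encode transcription factors of cytokine signaling. Among these 15 genes, irf9 was called higher in tumors (log2 fold change 2.09, edgeR adjusted p = 6.82e-05), as were mpp1 and stat4 at adjusted p of 0.00762 and 0.0096, and the others did not pass. Over all genes tested, 22.8% were called higher, so such calls were no more frequent among these 15 genes.

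Other markers of microglia and macrophages were called higher in 11 of 20 cases, out of a list of 24. edgeR called none lower and 9 neither way, against 22.8% higher and 24.9% lower over all genes tested. The list median log2 fold change was 2.64, against 0.09 over all genes. The count varied with the test: DESeq2 called 16 higher and 1 lower, and limma voom 17 and 1. Both tools also called more of the 20957 genes tested: DESeq2 5376 higher and 5631 lower, limma voom 6265 and 6815, against edgeR 4779 and 5220. At an unadjusted p under 0.05 with no fold threshold, 17 of the list were higher and 1 lower, and the share over all genes was not counted. The summed level of the list was 1403 to 3788 CPM in tumors, against 355 and 359 CPM in the pools. The scavenger receptor gene marco had 43.3 to 623 CPM in tumors, against 5.80 and 4.08 CPM in the pools (log2 fold change 4.999 ± 1.13, edgeR adjusted p = 0.00182). The integrin gene itgb2 was higher by 3.82 on the log2 scale, lgals3bpb, which encodes a secreted galectin-binding protein, by 3.39, and the cathepsin S gene ctss2.1 by 3.69, though ctss2.1 kept its call on leaving out only 6 of the 10 tumors in turn. The leukocyte gene ptprc had 19.7 to 97.6 CPM in tumors, against 10.5 and 11.7 CPM in the pools, and did not pass (edgeR adjusted p = 0.0117). tmem119b, a relative of a microglia marker of mammals, went the other way: it had 2.03 to 4.38 CPM in tumors, against 5.27 and 5.57 CPM in the pools, all 10 tumors below both. Its log2 fold change of -0.77 missed the threshold (edgeR adjusted p = 0.0113) and passed it with controls summed by letter (0.00973). tyrobp and tmem119a were too low to be tested, and cd68 and cx3cr1 were not found by these symbols.

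Of 16 myeloid transcription factor genes tested, 3 were higher, 2 lower and 11 neither way, and their median log2 fold change was 0.94. Both counts lay below the shares over all genes tested, 22.8% higher and 24.9% lower. sall1b, a relative of a gene that keeps microglial identity in mice, had 47.7 to 174 CPM in tumors, against 4.98 and 5.85 CPM in the pools (log2 fold change 4.30 ± 0.46, edgeR adjusted p = 7.04e-06); SALL1 is also made by neural precursors in mammals. tfec, which works in pigment and myeloid cells, was higher by 2.88, and spi1a, the duplicate of spi1b, by 2.01, a call kept on leaving out 6 of the 10 tumors in turn. mafba and mef2ca were lower, at -1.81 and -2.03 on the log2 scale. Both are also expressed outside the myeloid lineage.

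Genes that relay the signal below Csf1r and Tyrobp moved in both directions. Of 23 tested, 13 were higher, 3 lower and 7 neither way, against 22.8% higher and 24.9% lower over all genes tested. The list median log2 fold change was 1.36. Among those that work mainly in blood cells, the kinase genes btk and lyn were higher by 2.64 and 2.54 on the log2 scale, the phospholipase gene plcg2 by 2.58 and the lipid phosphatase gene inpp5d by 2.61. Of the genes called higher, inpp5d had 31.6 to 113 CPM in tumors, against 9.08 and 11.1 CPM in the pools (edgeR adjusted p = 0.000307). Others went the opposite way: pik3cd, a PI3-kinase gene known from leukocytes, was called lower (log2 fold change -1.83). syk, the kinase directly below Tyrobp, had 16.7 to 46.8 CPM in tumors, against 54.1 and 51.5 CPM in the pools. All 10 tumors lay below both, without passing (-0.97, edgeR adjusted p = 0.0126). Which cells made pik3cd and syk in this tissue was not tested. stat3, a transcription factor below many cytokine receptors, was higher by 2.36. The adaptor genes shc1 and grb2a were lower, at -1.93 and -0.91, while grb2b, the other grb2 gene of the list, was called higher, by 0.71. grb2b had 96.5 to 128 CPM in tumors, against 72.2 and 70.9 CPM in the pools, and grb2a 6.91 to 16.5 CPM, against 20.1 and 20.8 CPM.

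Complement, engulfment and lysosome genes moved in both directions, and most of those called in the main comparison were higher. Of 23 tested, 8 were higher, 4 lower and 11 neither way, against 22.8% higher and 24.9% lower over all genes tested. The list median log2 fold change was 0.64. The complement gene c1qc had 8.41 to 124 CPM in tumors, against 2.56 and 2.45 CPM in the pools (log2 fold change 4.04 ± 1.11, edgeR adjusted p = 0.00659). c1qa was higher by 3.64, a call kept on leaving out 6 of the 10 tumors in turn, c1qb with 3.96 just missed the threshold (edgeR adjusted p = 0.0113), and the cathepsin gene ctsz was higher by 3.16. Also called higher were the cathepsin genes ctsba (1.72), ctsla (0.85) and ctsk (2.104), and slc37a2 (1.12) and scarb1 (0.64). The lysosomal genes lamp1 (-0.20), lamp2 (-0.12), ctsd (0.75) and rraga (0.34) did not pass. mfge8b and mfge8a, which encode bridges between phosphatidylserine and phagocytes, were lower, at -2.82 and -1.52 on the log2 scale. The other lower calls were adgrb1a (-1.30) and gas6 (-0.81). Of 15 genes of the NADPH oxidase and inflammatory cytokines, 3 were higher, none lower and 12 neither way, with a median of 1.32. Neither count exceeded the shares over all genes tested, 22.8% higher and 24.9% lower. The 3 genes called higher were tgfb1a (by 1.73), nos2b (by 1.33) and tnfb (by 2.40). At an unadjusted p under 0.05 with no fold threshold, 7 were higher and 1 lower, and the share over all genes was not counted. At the adjusted p and fold thresholds of the calls, DESeq2 called 6 higher and 1 lower, and limma voom 8 and 2. Both tools also called more of all genes tested than edgeR, as given for the microglia markers. The replicate block called none of the 15 either way, against 3696 higher and 3491 lower over all genes. il1b had 1.16 to 5.75 CPM in tumors, against 0.725 and 0.816 CPM in the pools, and did not pass (edgeR adjusted p = 0.0179).

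**Figure D5:**
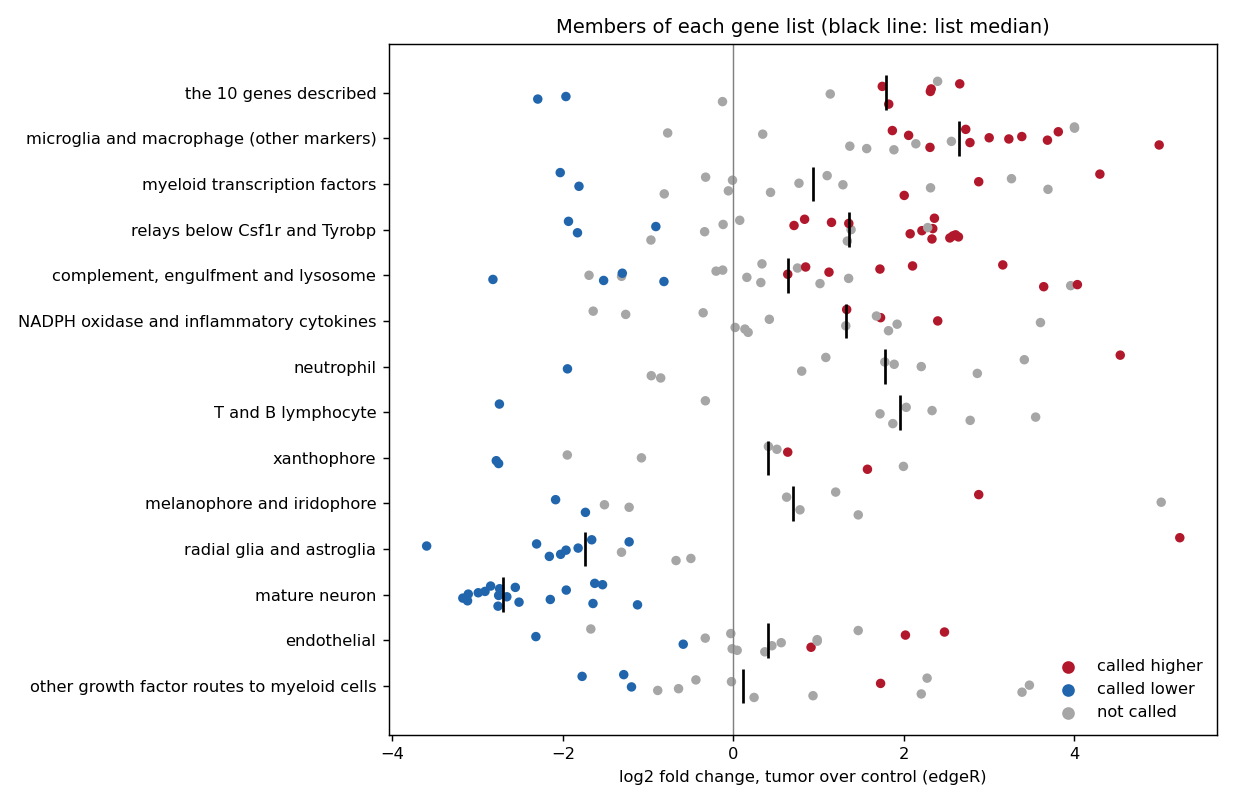
The edgeR log2 fold change, tumor over control, of each tested gene in 14 lists (points; red called higher, blue called lower, grey not called), with the median of each list (black line). The list medians run from -2.70 for neurons to 2.64 for the other microglia and macrophage markers.

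Markers of other cells were read from the same comparison, and their part in the results above was not tested. The neutrophil and lymphocyte lists held fewer calls than the shares over all genes tested, 22.8% higher and 24.9% lower. Of 11 neutrophil genes tested, cfl1l was higher (by 4.54 on the log2 scale), npsn lower (at -1.95, a call kept on leaving out 2 of the 10 tumors in turn) and 9 neither way, with a median log2 fold change of 1.78. The summed level was 67.2 to 384 CPM in tumors, against 49.0 and 52.2 CPM in the pools. csf3r and nccrp1 lay above both pools in all 10 tumors and srgn in 9, at 2.21, 1.09 and 1.89 on the log2 scale, without passing. The granule genes mpx and lyz went the other way without passing, mpx with 0.580 to 4.99 CPM in tumors, against 3.29 and 3.63 CPM in the pools, and lyz with 0 to 2.14 CPM, against 1.11 and 1.13 CPM. Of 8 T and B lymphocyte genes tested, none was higher, pax5, which is also a gene of the midbrain-hindbrain boundary, was lower (at -2.74) and 7 passed neither way, with a median log2 fold change of 1.95. At an unadjusted p under 0.05 with no fold threshold, 3 were higher and 1 lower, and the share over all genes was not counted. At the adjusted p and fold thresholds of the calls, DESeq2 and limma voom each called 3 higher. Over all genes tested these tools called 5376 and 6265 higher, against 4779 with edgeR. The T cell genes cd4-1, zap70 and il7r lay above both pools in all 10 tumors, at 3.55, 2.78 and 2.33 on the log2 scale (edgeR adjusted p = 0.0258, 0.0237 and 0.0408). All tumors lay above both pools in these 3 of the 8 lymphocyte genes tested and in 3 of the 11 neutrophil genes tested. Over all genes tested, the share was 31.5%. Of the other lymphocyte genes tested, lck lay above both pools in 9 tumors, cd8a in 6, cd79a in 5, rag2 in 1 and pax5 in none. The sum over the lymphocyte genes was 6.36 to 55.5 CPM in tumors, against 7.06 and 6.25 CPM in the pools, and cd79b was at 0 in both pools.

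Neuron genes were lower in tumors, as were most of the glia genes tested. Over all genes tested, 24.9% were called lower and 22.8% higher. All 18 neuron genes were called lower, at a median of -2.70 on the log2 scale and a sum of 1190 to 3524 CPM in tumors, against 12520 and 12490 CPM in the pools. rbfox3a, sypb, slc17a7a and gad1b stood at -3.17, -3.12, -3.11 and -2.99 on the log2 scale. Of 12 radial glia and astroglia genes, 8 were lower, 3 neither way (gfap, fabp7a and slc1a3b) and 1 higher, with a median of -1.74. The higher one, sox9b, had the largest change of the list, by 5.24 on the log2 scale, while cyp19a1b (-3.60), her4.1 (-2.31) and s100b (-2.16) were among those lower. gfap, a filament gene of astroglia, had 14.1 to 73.3 CPM in tumors, against 51.8 and 52.1 CPM in the pools (edgeR adjusted p = 0.201), and across tumors apoeb, which astroglia can also express, had r = 0.10 with gfap (permutation p = 0.782, adjusted p = 0.938; rho = -0.12, permutation p = 0.759, adjusted p = 0.853), and r was -0.41 without tumors 4 and 5.

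Of 16 endothelial genes tested, 3 were higher (cldn5b by 2.48, egfl7 by 2.02 and pecam1 by 0.91), 2 lower (flt4 at -2.32 and tek at -0.59) and 11 neither way, and the median was 0.41. Here and in the lists that follow, calls were fewer than over all genes tested (22.8% higher and 24.9% lower). pecam1 lost its call with controls summed by letter (edgeR adjusted p = 0.0102) and kept it on leaving out only 4 of the 10 tumors in turn, and tek on leaving out 5. Of 10 melanophore and iridophore genes, 1 was higher (tfec), 2 lower (ltk at -2.09 and dct at -1.74) and 7 neither way, with a median of 0.70. Of 14 genes of other growth factor routes to myeloid cells, tgfb1a was higher, ptprz1a, ptprz1b and kitlga were lower (at -1.77, -1.29 and -1.19) and 10 passed neither way, with a median of 0.11. ptprz1a and ptprz1b are the zebrafish forms of a receptor that binds IL-34 in mammals. The receptor genes csf2rb, csf3r, flt3 and kita differed in direction, and none of these 4 passed the test. csf2rb had 7.999 to 77.3 CPM in tumors, against 2.56 and 2.18 CPM in the pools (edgeR adjusted p = 0.0103), and csf3r had 2.65 to 33.0 CPM, against 1.64 and 2.13 CPM (edgeR adjusted p = 0.0575). flt3 and kita lay below both pools in all 10 tumors, at -0.89 and -0.64 on the log2 scale (edgeR adjusted p = 0.0164 and 0.0759).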

How the data were processed

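The authors deposited whole-number read counts per Ensembl gene for 24 libraries; per the labels and the paper's methods, 50 bp single-end reads from an unstranded kit were aligned to GRCz10 with GSNAP and unique reads counted with HTSeq. They also deposited FPKM, made from the counts, exonic length (the other deposited unit, in bp) and library total, which recomputation matched to 3.5e-07. The deposited comparison table of fold changes and p-values was not used.

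Libraries a and b were summed per label (12 samples). Tests used edgeR 4.0.16 in R 4.3.3 (quasi-likelihood, TMM, filterByExpr), with the adjusted p of 0.01 and 1.5-fold of the study, and were tested on simulated data. Alternatives were DESeq2 1.42.0, limma 3.58.1, other scalings and filters, single libraries, letter sums, a replicate block and leaving out samples. What is called limma voom here was always run with sample quality weights. Ratios, and leaving out tumors 1 and 5, were added after seeing the data. Relations used log2 CPM (prior count 0.5) and 100000 permutations; means per length are the mean FPKM of a and b. The 10 genes and the lists were chosen with earlier results of these data known. Named genes are these 10, rb1, the genes in the fixed relations, the 5 most similar across tumors to mpeg1.1, csf1ra and il34, and up to 4 per list with the largest called change at a mean of at least 5 CPM. Other list genes were named after their values were seen. Tumors are separate fish; the controls are pools, whose p-values measure the spread between these samples only.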

Additional observations from a re-analysis of the deposited data

Results flagged for a closer look

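In 5 of 14 sets of tumor values examined (the 10 genes and 4 ratios), the highest tumor lay far from the other 9, and the sets share tumors. Far means a large gap to the next tumor relative to the range of the tumors. The gaps were taken on CPM or ratios, not on log2 values. The rate for such gaps by chance, about 1 in 20 sets, assumes normally distributed values. That assumption was not tested, so the 5 sets are not shown to exceed chance. csf1ra reached 77.7 CPM in tumor 5, with the next tumor at 45.4 CPM. p2ry12 reached 12.7 CPM in tumor 5, with the next at 4.56 CPM. The ratio of p2ry12 to mpeg1.1 was 0.258 in tumor 5, with the next at 0.148. il34 reached 14.6 CPM in tumor 1, with the next at 8.27 CPM. csf1b reached 0.456 CPM in tumor 6, with the next at 0.285 CPM, a difference of a few reads. Without tumors 1 and 5 together, csf1ra stayed higher in tumors (log2 fold change 1.62, edgeR adjusted p = 0.000162), p2ry12 passed the threshold (2.04, adjusted p = 0.00549) and il34 did not (0.78, adjusted p = 0.241).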

How the results depend on the processing

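The 5 higher calls among the 10 genes held in every scaling, filter, tool, unit and single library tried and on leaving out each tumor; DESeq2 and limma voom called 6. Leaving out samples in turn gave 1 to 6 higher and 1 to 2 lower calls among them, the lowest without either control pool, and 2904 to 5046 genes called higher in all. Lower calls numbered 0 with at least 10 counts required in every sample (csf1a and csf1b were not tested), 0 with the replicate block, and 1 in library a alone, in library b alone and on log2(FPKM + 1). The replicate block, which compares tumors 1 and 2 alone with the pools, called 3696 genes higher and 3491 lower, against 4779 and 5220 without it. The deviations of same-numbered tumors and pools had correlations of 0.016 and 0.0208. As the labelled pools differed by no more than sampling noise, these correlations could not show whether the numbers are pairs. The numbers were not taken as pairs, since nothing in the labels ties them. List counts moved by over 1.5 times in many settings, most without either control pool. There, fewer of the other microglia markers, the complement list and the relays were called higher, and calls in the complement list were no longer mostly higher. The median log2 fold change of the complement list was then 0.58 to 0.70. Over all genes tested, control sums by letter gave 4660 higher and 5262 lower.

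Directions turned for csf1rb without tumors 1 and 5 (log2 fold change 0.14) and for weak relations: csf1a and csf1b had r = -0.14 in library a and -0.0906 in library b, csf1ra and csf1b 0.0818, csf1rb and csf1a -0.0215 and csf1rb and csf1b -0.18 in library b. Depth limits csf1b, with 2 to 11 counts per tumor. The cause of these changes was not tested. The planned count of promoter motifs and the comparison of protein sequences were not run.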
